A study of Cannabis sativa with 10 samples.

Results

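The comparison described here sets apical shoot tips of Cannabis sativa at week 1 of female flowering against vegetative shoot tips, across all genes. It uses 4 of the 10 libraries of the study, chosen by their labels: 2 from apices given a female flower induction treatment and collected at week 1, and 2 from vegetative apices. All libraries came from 1 genotype, A3, and the labels give no ages, light regime or plant numbers. The other 6 libraries (male week 1, female week 3 and male week 3) entered the fit to help estimate the spread, and the labels name STS treatment only for the male ones. Each library is bulk mRNA of a whole apex, so fewer cells of a type and less RNA per cell cannot be told apart. The labels do not say that the replicates are separate plants, so each p-value reflects only how far these libraries scatter, which may be technical.

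In flowering plants the change from leaf to flower production takes place in the shoot apical meristem. FLOWERING LOCUS T (FT), a protein made in leaves and carried to the apex, acts there with FD, a bZIP transcription factor, and switches on MADS-box genes such as APETALA1, FRUITFULL and SOC1, together with LEAFY. SVP, another MADS-box gene, and TERMINAL FLOWER 1 hold the meristem back from flowering in Arabidopsis. Later MADS-box genes, the ABC and SEPALLATA genes, specify the floral organs: APETALA3 and PISTILLATA petals and stamens, AGAMOUS stamens and carpels, and AGL11 ovules. Cannabis usually bears female and male flowers on different plants, and a female flower consists mainly of a pistil.

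Levels are FPKM, which scale fragments by gene length and library total. Of 35192 genes, 16426 averaged 1 FPKM or more in female week 1 or vegetative apices and were tested with limma on log2(FPKM + 1). Differences are female week 1 minus vegetative on that scale, ± SE, and understate the change of genes at low levels. Genes under 1 FPKM in 1 of these groups were tested only through the other, higher group. In lists with many such genes, the counts of rises or falls partly follow from this filter. A gene is said to have risen or fallen where its Benjamini-Hochberg adjusted p was under 0.05. Genes named as risen or fallen kept an adjusted p under 0.05 when each of the 4 libraries was left out in turn, unless the sentence says otherwise.

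In female week 1 apices 969 of 16426 genes differed (5.90%): 533 were higher (3.24%) and 436 lower (2.65%) than in vegetative apices. Of these, 225 were higher by at least 1 log2 unit (1.37%) and 175 were lower by as much (1.07%), and 22 rose and 23 fell by at least 2 units. At an unadjusted p under 0.05 there were 3193 genes. The shares of all genes called (5.90%, with 3.24% higher and 2.65% lower) are the background for the list counts below. The median difference over all genes tested was 0.001, and the 5th and 95th percentiles were -0.54 and 0.60. In all 969 genes the 2 female week 1 libraries lay on 1 side of the 2 vegetative libraries, but so they did in 8591 of all genes tested (52.3%). Leaving out 1 library lowered the count to 370 without female week 1 replicate 1, and to 291 with replicate 2 of that group left out. It was 563 when vegetative replicate 1 was dropped and 456 when vegetative replicate 2 was. With the shared spread estimated without male week 1 replicate 1 or 2, it was 1512 and 1504. Of the 969 genes, 225 were called with all libraries and in each of these 4 fits, 120 higher and 105 lower.

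**Figure D1:**
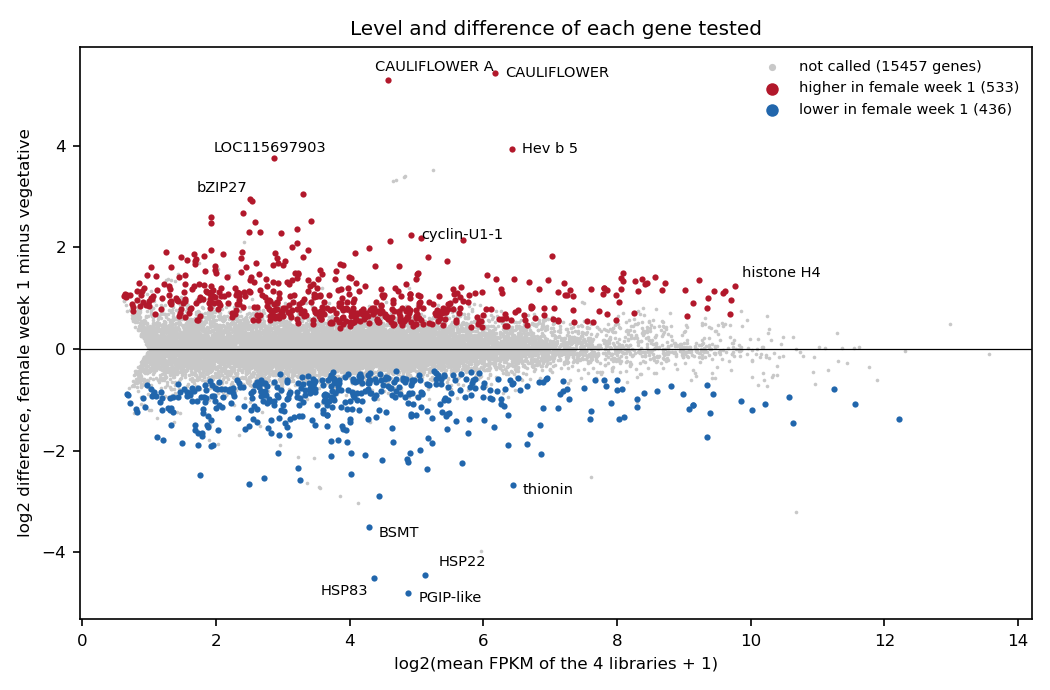
Each point is 1 of the 16426 genes tested, with its mean level over the 4 libraries as log2(FPKM + 1) on the horizontal axis and its log2 difference, female week 1 minus vegetative, on the vertical axis; red and blue points are the 533 genes called higher and the 436 called lower. The largest rises are 2 MADS-box genes described as CAULIFLOWER, and the largest falls are a polygalacturonase inhibitor-like gene and 2 heat shock genes.

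The called genes were not set apart by level, with a median of 13.6 FPKM over the 4 libraries against 14.3 FPKM for all genes tested. They lay on every chromosome, and the share called on the nuclear chromosomes ran from 4.51% on chromosome 2 to 7.37% on chromosome 6. Chromosome X held 73 higher and 58 lower genes (6.77%). The descriptions name a product for 428 genes that rose and 356 that fell, and 95 higher and 72 lower genes are described only as uncharacterized. The 4 libraries were similar in total FPKM, at 734508 and 712463 in female week 1 and 706260 and 750743 in vegetative apices. Across genes, levels correlated at 0.987 between the female week 1 libraries and at 0.984 between the vegetative ones, against 0.967 to 0.97 between the 2 groups.

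MADS-box genes held the 2 largest rises. Of 78 matched, 29 were tested, of which 14 rose and 4 fell, with a median difference of 0.67 against 0.001 for all genes. Members under 1 FPKM in vegetative apices, such as AGAMOUS (mean 0.387) and AGL11 (mean 0.818), were tested only through their female week 1 level. The share that rose and the median are therefore partly set by the filter. The authors' deposited table called 14 of these 29, rises and falls together, which are not the 14 rises given here. AGAMOUS and PMADS 2, both called by limma, were not among them (adjusted p = 0.184 and 0.324 there). Without 1 library, 9 to 12 rose and 2 fell. The gene described as CAULIFLOWER (LOC115704295), whose nearest Arabidopsis protein is AGL16 at 48.88% identity and not CAULIFLOWER or APETALA1, had 119 and 161 FPKM in female week 1 apices, against 3.77 and 1.2 in vegetative apices, a difference of 5.43 ± 0.34 (adjusted p = 2.98e-05). CAULIFLOWER A (LOC115702300), whose nearest Arabidopsis protein is FRUITFULL, a promoter of flowering and fruit growth, had 40.9 and 49.8 FPKM in female week 1 apices, against 0.377 and 0 in vegetative apices (5.30 ± 0.19, adjusted p = 1.08e-06). Every female week 1 library was many times above every vegetative one for both genes. LOC115697903, without a product name and on chromosome 7 (58255935 to 58256581, minus strand, build ASM2916894v1), was counted in this list because the authors' deposited table gives its nearest Arabidopsis protein, at 82.22% identity, the symbol AGL79. The same table describes that protein as of a galactosyltransferase family, so only the symbol places LOC115697903 among MADS-box genes. Its place in the list is doubtful, and the 14 rises include it. This gene had 12.8 and 12.3 FPKM in female week 1 apices, against 0.000231 and 0.00717 in vegetative apices (3.75 ± 0.54, adjusted p = 0.00365). The vegetative libraries held almost no signal of it.

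Of the genes nearest to those of floral organ identity, some rose and others did not pass the test. Among the SEPALLATA and AGL6 relatives, which act as partners of the other organ identity proteins, MADS4 (LOC115712087, nearest SEPALLATA3) had 4.16 and 5.94 FPKM in female week 1 apices, against 0.871 and 0.28 in vegetative apices (1.95 ± 0.22, adjusted p = 0.00114). MADS2 (LOC115700828, nearest SEPALLATA2) had 5.34 and 6.15 FPKM against 0.771 and 0.914 (1.87 ± 0.26, adjusted p = 0.00307). A gene nearest to APETALA1 (LOC115698549), which gives floral meristems their identity, had 13.5 and 17.4 FPKM in female week 1 apices, against 3.43 and 3.04 in vegetative apices (1.95 ± 0.22, adjusted p = 0.00106). As in all 969 called genes, the groups did not overlap in these 3. AGL11 (LOC133031811), the ovule gene, differed by 2.50 ± 0.22, MADS3 (LOC115716337), nearest AGL6, by 2.01 ± 0.22, and AGAMOUS (LOC115697576) by 1.75 ± 0.26. AGAMOUS was low, with 2.96 and 4.15 FPKM in female week 1 apices, against 0.72 and 0.0536 in vegetative apices. It was not called in the authors' deposited table (adjusted p = 0.184 there). A second gene nearest to APETALA1 (LOC115701438) had 24.7 and 23.7 FPKM in female week 1 and 21.9 and 21.7 FPKM in vegetative apices, with a difference of 0.15 ± 0.13 (adjusted p = 0.611). Another entry described as MADS2 (LOC115700827) differed by 0.67 ± 0.24 (adjusted p = 0.148). Its coordinates overlap those of LOC115700828 on the minus strand of chromosome 8. Reads may have been shared between the 2, so their values are uncertain one by one. Another gene described as AGAMOUS (LOC115700192), nearest to AGL11 at 32% identity, differed by 0.07 ± 0.22 (adjusted p = 0.898).

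The 4 MADS-box genes that fell include 2 relatives of SVP. JOINTLESS (LOC115714329), named after a tomato gene needed for the joint in the flower stalk, had 4.84 and 5.77 FPKM in female week 1 apices, against 23.6 and 26.8 in vegetative apices (-2.05 ± 0.16, adjusted p = 0.000109). SVP (LOC115721274) had 14 and 10.4 FPKM in female week 1 apices, against 28.7 and 29.5 in vegetative apices (-1.20 ± 0.18, adjusted p = 0.00437). Both vegetative libraries were about level with each other and far above both female ones. The PISTILLATA relative PMADS 2 (LOC115699531) was low throughout, at 0.998 and 1.11 FPKM in female week 1 apices and 1.96 and 2.68 FPKM in vegetative apices, and its call was lost without any 1 of the 4 libraries (adjusted p up to 0.241). SOC1 (LOC115706939), which sums the signals for flowering in Arabidopsis, was already present before flowering, at 45.1 and 55.4 FPKM in female week 1 and 43.1 and 39.2 FPKM in vegetative apices (0.28 ± 0.21, adjusted p = 0.537).

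**Figure D2:**
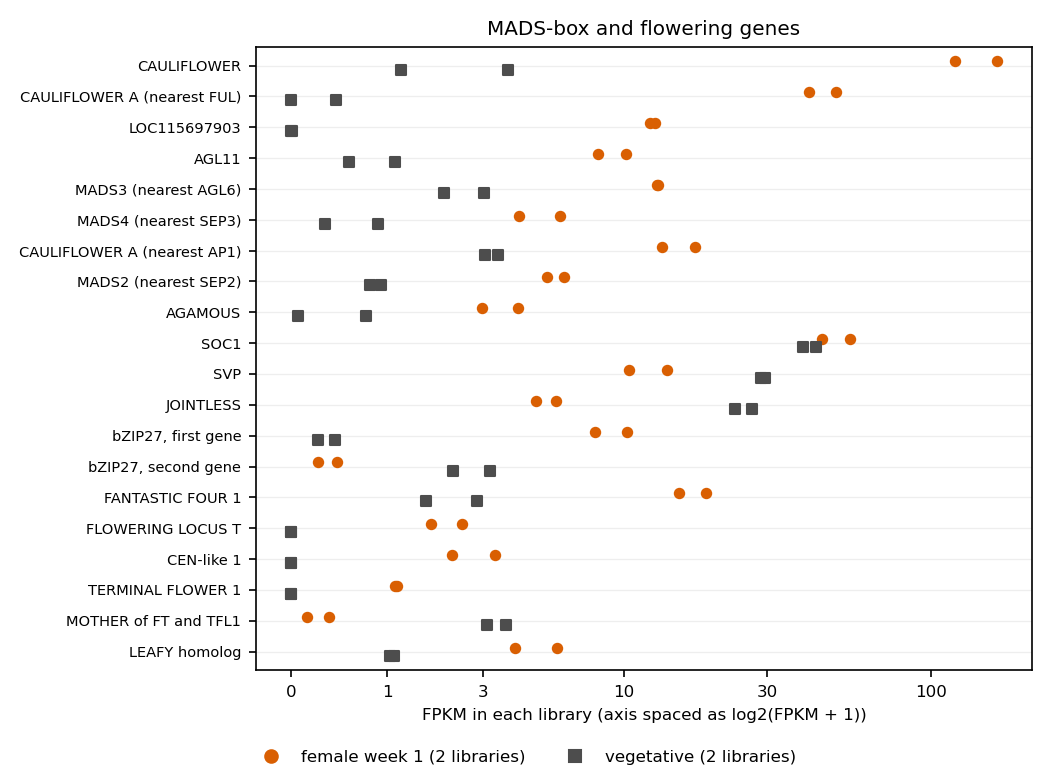
FPKM in each library for 20 MADS-box and flowering genes, on an axis spaced as log2(FPKM + 1); circles are the 2 female week 1 libraries and squares the 2 vegetative libraries. The circles lie right of the squares for the genes that rose, and close to them for SOC1. They lie left of the squares for SVP, JOINTLESS, the second bZIP27 gene and MOTHER of FT and TFL1. LOC115697903 is shown with the MADS-box genes by its symbol only.

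Of 54 genes of flowering time and inflorescence identity tested, 12 rose and 2 fell, and the median difference was 0.05. Without 1 library, 8 rose and 2 fell. A pair of genes described as bZIP transcription factor 27 moved in opposite directions. The first (LOC115722367), nearest to FD, the partner of FT at the apex, had 7.97 and 10.3 FPKM in female week 1 apices, against 0.214 and 0.371 in vegetative apices (2.96 ± 0.22, adjusted p = 9.81e-05). The second (LOC115723488), nearest to Arabidopsis bZIP27, had 0.389 and 0.216 FPKM in female week 1 apices, against 3.19 and 2.21 in vegetative apices (-1.50 ± 0.20, adjusted p = 0.00236). Each was near its floor in the group where the other was present. They lie on chromosome X, the first at 70419053 to 70420033 and the second at 69777739 to 69779905.

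In the FT and TERMINAL FLOWER 1 family, 4 genes were called, 2 of them only with all libraries in the fit. FT (LOC115709185) had 2.42 and 1.74 FPKM in female week 1 apices and was at 0 in each vegetative library (adjusted p = 0.0306), a call lost without any 1 of the 4 libraries (adjusted p up to 0.183). CEN-like 1 (LOC115715658), nearest to BROTHER OF FT AND TFL1, a repressor of flowering in Arabidopsis, had 2.19 and 3.35 FPKM in female week 1 apices and was listed at 0 in vegetative replicates 1 and 2 (adjusted p = 0.00444). TERMINAL FLOWER 1 (LOC115708910), which keeps inflorescence meristems from turning into flowers, had 1.14 and 1.11 FPKM and was likewise listed at 0 in vegetative apices (adjusted p = 0.0105). That call was lost without any 1 library, and the gene was not called in the authors' deposited table. MOTHER of FT and TFL1 (LOC115707673), known for its part in seed germination, went the other way, with 0.318 and 0.124 FPKM in female week 1 apices and 3.7 and 3.1 FPKM in vegetative apices (-1.85 ± 0.19, adjusted p = 0.000603). The other 3 genes tested did not pass. HEADING DATE 3A (LOC115697736), nearest to FT, had 2.97 and 0.811 FPKM in female week 1 apices and was listed at 0 in vegetative apices (adjusted p = 0.088). A second CEN-like 1 gene (LOC115697843) had 12.9 and 18.8 FPKM in female week 1 and 6.73 and 9.16 FPKM in vegetative apices (0.91 ± 0.27, adjusted p = 0.0892), and another (LOC115715930) differed by -0.93 ± 0.49 (adjusted p = 0.339).

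Among other regulators of the meristem, some rose and others were not called. FAF1 (LOC115704097), of a family that regulates shoot meristem size in Arabidopsis, had 15.4 and 18.9 FPKM in female week 1 apices, against 1.65 and 2.82 in vegetative apices (2.51 ± 0.19, adjusted p = 0.000109). A FAF-like gene (LOC115719317) of the same family had 26 and 25.2 FPKM against 6.46 and 6.04 (1.88 ± 0.20, adjusted p = 0.000767). FAF3 (LOC115721692) and another FAF-like gene (LOC115719444) did not pass, at -0.11 ± 0.16 (adjusted p = 0.777) and -0.51 ± 0.22 (adjusted p = 0.231). The LEAFY homolog (LOC115695615), a central regulator of floral meristem identity, had 4.03 and 5.78 FPKM in female week 1 apices, against 1.1 and 1.04 in vegetative apices (1.50 ± 0.21, adjusted p = 0.00343). As in all 969 called genes, the groups did not overlap for FAF1, the FAF-like gene that rose and the LEAFY homolog. CONSTANS-LIKE 10 (LOC115714019), a zinc finger protein of the CONSTANS family, rose by 1.49 ± 0.18. Of 16 SQUAMOSA promoter-binding genes tested, the age-dependent promoters of flowering, 1 rose: SBP1 (LOC115700826), with 20.7 and 23.6 FPKM in female week 1 apices and 8.92 and 6.58 FPKM in vegetative apices (1.41 ± 0.17, adjusted p = 0.00156). Of 61 homeobox genes, 3 rose and 1 fell (1 to 3 and 1 to 2 without 1 library). The shares called were 6.25% of the SQUAMOSA promoter-binding genes and 6.56% of the homeobox genes, near the 5.90% of all genes. ATHB-40 (LOC115714457), a leucine zipper protein, had 3.64 and 4.37 FPKM in female week 1 apices and 0.34 and 0.385 FPKM in vegetative apices (1.87 ± 0.19, adjusted p = 0.000603).

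Among 45 regulators of lateral organs, 7 rose and 3 fell, with a median of 0.06, and without 1 library 2 to 3 rose and 0 to 2 fell. CRABS CLAW (LOC115699020), a YABBY gene of carpels and nectaries, had 3.58 and 4.34 FPKM in female week 1 apices, against 0.677 and 0.305 in vegetative apices (1.74 ± 0.24, adjusted p = 0.00276). Cytochrome P450 78A5 (LOC115709619), described by the name of KLUH, an Arabidopsis promoter of organ growth, but nearest to a different Arabidopsis P450 at 64.25% identity, had 13.2 and 10.6 FPKM in female week 1 apices, against 2.55 and 0.954 in vegetative apices (2.29 ± 0.39, adjusted p = 0.0077). That call was lost without female week 1 replicate 1 or vegetative replicate 2 (adjusted p up to 0.069). YABBY 5 (LOC115724567), which marks the lower side of leaves, had 65.9 and 63.8 FPKM in female week 1 apices, against 105 and 106 in vegetative apices (-0.69 ± 0.12, adjusted p = 0.00734), and was lost without female week 1 replicate 1 or 2 (adjusted p up to 0.0746).

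Carpel and stamen markers were checked against these changes. Of 9 genes matched to carpel and ovule markers, 5 were tested and 3 rose, among them CRABS CLAW and AGL11. Both averaged under 1 FPKM in vegetative apices, so they were tested only through their female week 1 level. In male week 1 apices CRABS CLAW averaged 5.48 ± 2.11 FPKM and AGL11 8.22 ± 1.97 (SD, n = 2). Neither was called in the direct limma test of female against male week 1 (adjusted p = 0.873 and 0.957). The summed level of the 9 genes, most of it from the INNER NO OUTER matches, was 108 and 131 FPKM in female week 1. In vegetative apices it was 116 and 118 FPKM. Of 8 stamen and pollen genes, 1 was tested, and the sum was 1.88 and 2.16 FPKM in female week 1 and 3.48 and 3.63 FPKM in vegetative apices. The matches of the tapetum regulators AMS and MS1 were listed at 0 in all 4 libraries. Of 8 shoot meristem genes, 6 were tested and 0 were called by limma, with 3 at an unadjusted p under 0.05 and 1 called in the authors' deposited table. Their sum was 37.9 and 44.6 FPKM in female week 1 and 32.2 and 33 FPKM in vegetative apices. Their part in the results was not tested.

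Of the 62 gene lists, histones, which encode the proteins that package DNA, had the highest share called. Of 45 tested, 36 rose (80%) and 0 fell, with a median difference of 1.13. Their summed level was 17630 and 19961 FPKM in female week 1 apices and 10111 and 8804 FPKM in vegetative apices. A single gene of histone H4 (LOC115719770) had 1163 and 1276 FPKM in female week 1 apices, against 606 and 437 in vegetative apices (1.24 ± 0.20, adjusted p = 0.00519, lost without female week 1 replicate 2 at 0.057). The number that rose was 30 without female week 1 replicate 1, 12 without female week 1 replicate 2, and 32 and 19 with vegetative replicates 1 and 2 left out in turn. Histone genes come in near-identical copies, so reads may have been shared among them and single-gene values are uncertain; no source used here names the counting tool.

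The calls fell on the groups that hold the histones made mainly in S phase, when DNA is copied. They were 11 of 11 H2A and H2AX genes (median 1.15), 7 of 7 H2B genes (1.13), 7 of 7 H3.2 genes (1.27), 7 of 8 H4 genes (1.20) and 4 of 5 linker H1 genes (1.01). H2AX, itself an H2A variant, was grouped here with H2A. Of the replacement forms, which are put into chromatin outside DNA replication, 0 of 4 H2A variants (median 0.00), 0 of 2 H3.3 genes (0.50) and 0 of 1 centromeric H3 gene (0.31) passed the test by limma. At an unadjusted p under 0.05 there were 1, 1 and 0 of these, and 1, 0 and 0 were called in the authors' deposited table. The difference between the 2 kinds was not tested. The higher H3.3 gene (LOC115712897) stood at 1333 and 1342 FPKM in female week 1 apices and 1180 and 1196 FPKM in vegetative apices (0.17, adjusted p = 0.578). The other (LOC115701521) had 2.46 and 2.61 FPKM in female week 1 and 1.6 and 0.523 FPKM in vegetative apices (0.83 ± 0.23, adjusted p = 0.0661).

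Of 53 replication genes tested, 0 rose and 1 fell, DNA polymerase epsilon (LOC115720315, -1.12 ± 0.17), and the median was -0.03. Of 173 genes of cyclins and mitosis, 4 rose and 0 fell (2.31% called), with a median of 0.06, and 2 to 5 rose and 0 to 1 fell without 1 library. Of these cyclin-U1-1 (LOC115699719), of the plant U-type cyclins, had 55.3 and 43 FPKM in female week 1 apices, against 9.32 and 9.76 in vegetative apices (2.24 ± 0.18, adjusted p = 0.000149). Cyclin-D3-3 (LOC115711182), which drives cells into division, rose by 0.79 ± 0.11. Of 183 cytosolic ribosomal protein genes, 0 were called by limma, with a median of -0.04; 7 had an unadjusted p under 0.05, and 3 were called in the authors' deposited table. Of 148 chromatin and small RNA genes, 10 rose and 2 fell, with fewer of each without 1 library. The share called was 8.11%, near the 5.90% of all genes. The AT-hook protein AHL15 (LOC115705643) rose by 1.21 ± 0.16, and high mobility group B7 (LOC115704008) by 1.88 ± 0.31, which lost its call without vegetative replicate 2 (adjusted p = 0.0567).

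**Figure D3:**
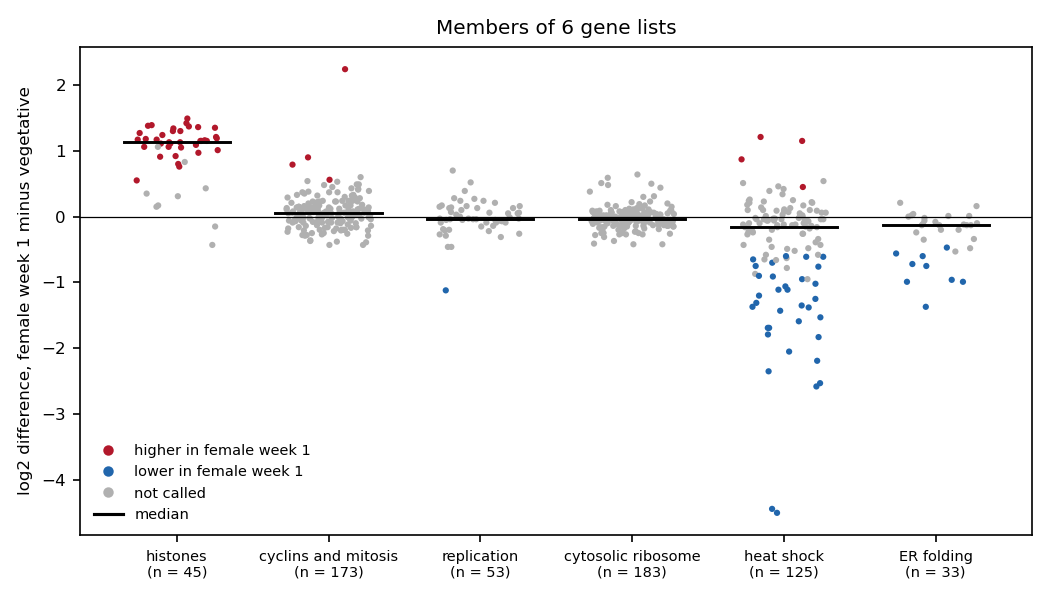
The log2 difference, female week 1 minus vegetative, of every tested member of 6 gene lists; red points rose, blue points fell, grey points were not called and the bar is the median. Histone genes centre at 1.13, while cyclins, replication and ribosomal genes centre within 0.06 of 0 and the chaperone lists extend downward.

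Most heat shock genes were not called, and 27.2% fell. These chaperones help other proteins fold and are best known for their induction by heat. Of 125 tested, 4 rose and 34 fell, against 2.65% of all genes that fell, with a median of -0.15, and their sum was 5048 and 4776 FPKM in female week 1 and 6887 and 6164 FPKM in vegetative apices. Without 1 library, 17 to 29 fell. Small heat shock proteins, which hold unfolded proteins in solution, accounted for 11 of these falls among 18 tested, with a median of -1.26 and a sum of 186 and 180 FPKM in female week 1 and 511 and 392 FPKM in vegetative apices. A further 3 of 9 HSP70 genes, 2 of 4 HSP90 genes, 6 of 35 dnaJ genes, 4 of 16 heat stress transcription factors and 3 of 11 BAG regulators fell. The rises were 1 dnaJ gene, 2 heat stress transcription factors and 1 BAG regulator. Medians were -0.10 for dnaJ genes, -0.10 for heat stress transcription factors and -0.18 for BAG regulators.

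The strongest falls were close to loss of signal. Heat shock protein 83 (LOC115706731), an HSP90 protein, had 0.663 and 0.751 FPKM in female week 1 apices, against 46.4 and 30.3 in vegetative apices (-4.50 ± 0.21, adjusted p = 4.88e-06). The mitochondrial 22 kDa heat shock protein (LOC115707101) had 1.61 and 2.22 FPKM in female week 1 apices, against 89.4 and 42.9 in vegetative apices (-4.44 ± 0.32, adjusted p = 8.27e-05). Vegetative replicate 1 was the highest library in both. Multiprotein-bridging factor 1c (LOC115707742), a coactivator of the heat response, had 0.453 and 1.39 FPKM in female week 1 apices, against 13.4 and 7.03 in vegetative apices (-2.53 ± 0.29, adjusted p = 0.00106). An HSP70 gene (LOC115707967) fell by 2.19 on the log2 scale and the 18.5 kDa class I protein (LOC115721022) by 2.58. Class I genes are clustered. Of 8 tested on chromosome 2 between 60293576 and 60818719, 5 fell, and since such copies are alike their values are uncertain one by one.

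Chaperones of the endoplasmic reticulum are a list added after values had been seen. Of 33 tested, 0 rose and 9 fell, with a median of -0.13, and 2 to 8 fell without 1 library. The transcription factor bZIP60 (LOC115725441), which drives the response to unfolded proteins, had 27.5 and 29 FPKM in female week 1 apices, against 59.7 and 52.5 in vegetative apices (-0.96 ± 0.14, adjusted p = 0.00397). The dnaJ protein ERDJ3A (LOC115697037) fell by 1.37 on the log2 scale. The luminal binding protein BiP (LOC115717050), the main HSP70 of this compartment, had 218 and 197 FPKM in female week 1 apices, against 483 and 353 in vegetative apices (-0.99 ± 0.16, adjusted p = 0.00561, lost without female week 1 replicate 2 at 0.0645).

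Several defence genes fell far. A polygalacturonase inhibitor-like gene (LOC115699588), of a family that blocks the pectin-degrading enzymes of fungi, had 1.23 and 0.851 FPKM in female week 1 apices, against 52.1 and 59.1 in vegetative apices (-4.80 ± 0.21, adjusted p = 4.37e-06). A neighbour of the same description (LOC115698680) had 4.85 and 3.5 FPKM against 36.7 and 37.8 (-2.90 ± 0.18, adjusted p = 2.98e-05). The pair lies on the minus strand of chromosome 8, at 22875956 to 22877238 and 22920365 to 22921687. In both genes the vegetative libraries were close together and the female week 1 libraries far below. The list of protease inhibitors and storage or latex proteins that holds them had 2 rises and 6 falls in 37 genes tested.

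Its 2 rises were also large. The gene described as latex allergen Hev b 5 (LOC115700445), an acidic protein named after a rubber tree allergen, had 136 and 186 FPKM in female week 1 apices, against 9.56 and 9.45 in vegetative apices (3.93 ± 0.23, adjusted p = 2.24e-05). MLP-like protein 43 (LOC115701418), of the major latex protein family, had 7.42 and 8.78 FPKM against 0.443 and 0.402 (2.67 ± 0.22, adjusted p = 0.000149). Female week 1 values were far above vegetative ones in each library.

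Of 97 salicylate and pathogenesis-related genes tested, 3 rose and 9 fell, and the median was 0.01. Without 1 library, 1 to 3 rose and 4 to 9 fell. BSMT (LOC115711939), which makes the volatile methyl salicylate, had 1.82 and 2.48 FPKM in female week 1 apices, against 38.1 and 31.5 in vegetative apices (-3.51 ± 0.22, adjusted p = 2.98e-05). Phenylalanine ammonia-lyase (LOC115709383), the entry to phenylpropanoids, had 6.61 and 5.1 FPKM against 23.8 and 22.8 (-1.83 ± 0.15, adjusted p = 0.000149). A thionin (LOC115719017), a small antimicrobial peptide, had 22.4 and 22.5 FPKM in female week 1 apices, against 152 and 147 in vegetative apices (-2.68 ± 0.25, adjusted p = 0.000345). Thionins lie together on chromosome X between 2327357 and 3039271, where 4 of 8 tested fell. Outside this list, large falls were those of peroxidase 15 (LOC115695924, -2.46 ± 0.18), polyphenol oxidase I (LOC133033538, -2.22 ± 0.17) and the ribosome-inactivating protein cucurmosin (LOC115695889, -2.24 ± 0.27).

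Of 48 jasmonate genes tested, which act in wounding and in stamen growth, 1 rose and 11 fell, with a median of -0.25. The falls were 1 to 5 without 1 library, and the rise was lost in each such fit. Lipoxygenases, which start jasmonate synthesis, made up 5 of the falls among 17 tested. Jasmonate-induced oxygenase 2 (LOC115696902), which inactivates jasmonate, had 3.09 and 3.56 FPKM in female week 1 apices, against 9.25 and 10.8 in vegetative apices (-1.35 ± 0.15, adjusted p = 0.000899). A 13S-lipoxygenase (LOC115719616) had 60.3 and 27.9 FPKM against 126 and 186 (-1.87 ± 0.37, adjusted p = 0.0147), lost without female week 1 replicate 2 or vegetative replicate 2 (adjusted p up to 0.119).

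Of 39 genes of abscisic acid tested, the hormone of drought and dormancy, 9 rose and 2 fell, with a median of 0.04, and 6 to 8 rose without 1 library. NCED1 (LOC115706646), the key enzyme of its synthesis, had 4.59 and 3.99 FPKM in female week 1 apices, against 0.865 and 0.805 in vegetative apices (1.53 ± 0.22, adjusted p = 0.00337). Of the responsive genes, the low-temperature-induced 65 kDa protein (LOC115716021) had 20 and 21.9 FPKM against 7.8 and 4.29 (1.68 ± 0.20, adjusted p = 0.00146), and AFP3 (LOC115699629), a negative regulator of the response, rose by 1.38 ± 0.19. The receptor PYL4 (LOC115698161) went the other way, with 19.4 and 20.9 FPKM in female week 1 apices and 49.8 and 56.8 FPKM in vegetative apices (-1.36 ± 0.15, adjusted p = 0.000767). Of 35 late embryogenesis and dehydration genes, 6 rose and 4 fell (5 and 1 to 3 without 1 library). RD22 (LOC115719008), a drought-responsive BURP protein, had 8.59 and 9.93 FPKM in female week 1 apices, against 0.729 and 0.0628 in vegetative apices (2.92 ± 0.23, adjusted p = 0.000118).

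The other hormone lists gave 2 to 4 calls each, which is 2.15% of the auxin, 7.5% of the cytokinin, 15% of the brassinosteroid and 15.4% of the ethylene and of the gibberellin genes, against 5.90% of all genes. Of 93 auxin genes tested, 1 rose and 1 fell (0 and 1 to 2 without 1 library), GH3.10 (LOC115700897, -0.94 ± 0.14), of a family that joins amino acids to hormones. Cytokinin genes gave 3 rises and 0 falls in 40, brassinosteroid genes 1 and 2 in 20, and ethylene genes 1 and 3 in 26. Without 1 library there were 0 to 1 cytokinin rises and 0 to 1 falls, 1 brassinosteroid rise and 0 to 3 falls, and 0 to 1 ethylene rises and 2 to 3 falls. Of 26 gibberellin genes, 1 rose and 3 fell (1 and 2 to 3 without 1 library). Gibberellin-regulated protein 6-like (LOC115710205), a small cysteine-rich peptide, had 90.5 and 76 FPKM in female week 1 apices, against 18.6 and 17.5 in vegetative apices (2.14 ± 0.14, adjusted p = 3.62e-05). Gibberellin 2-beta-dioxygenase 8 (LOC115701137), which inactivates the hormone, had 0.411 and 0.797 FPKM against 3.62 and 4.98 (-1.72 ± 0.22, adjusted p = 0.00184). Phytosulfokine 6 (LOC115708762), a growth peptide precursor, rose by 1.80 ± 0.21.

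**Figure D4:**
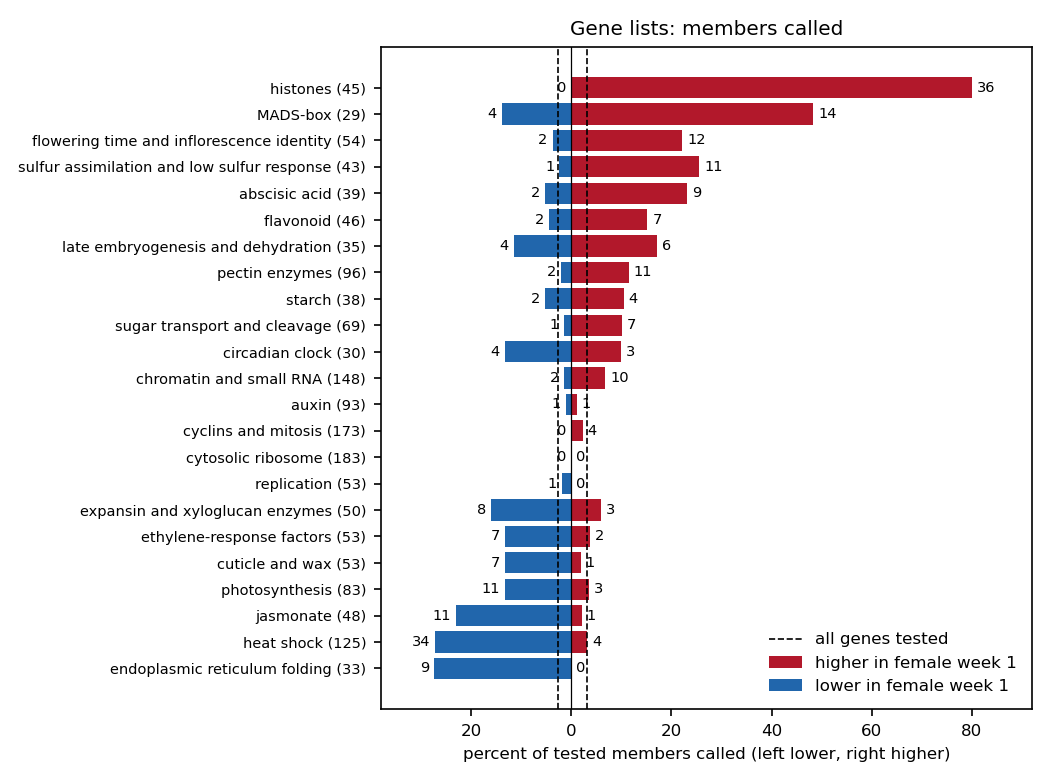
Percent of the tested members of 23 gene lists called higher (right, red) or lower (left, blue) in female week 1 apices, with the number of genes called beside each bar and the number tested after each name; dashed lines give the 3.24% higher and 2.65% lower among all genes. Histones and MADS-box genes extend furthest to the right, and heat shock, endoplasmic reticulum folding and jasmonate genes furthest to the left.

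Sulfur genes, a list added after values had been seen, rose in 11 and fell in 1 of 43 tested, with a median of 0.25. Without 1 library, 3 to 7 rose. APS reductase 2 (LOC115707749), the control point of sulfate reduction, had 88.7 and 103 FPKM in female week 1 apices, against 38.5 and 30.7 in vegetative apices (1.45 ± 0.16, adjusted p = 0.000899). A RESPONSE TO LOW SULFUR 4-like gene (LOC133033026), a marker of sulfur shortage in Arabidopsis, had 57.4 and 76.2 FPKM against 17.1 and 21.5 (1.73 ± 0.24, adjusted p = 0.00294). SULFUR DEFICIENCY-INDUCED 1 (LOC115712390) had 5.92 and 13.2 FPKM in female week 1 apices, against 1.29 and 0.758 in vegetative apices (2.30 ± 0.40, adjusted p = 0.00854), lost without female week 1 replicate 2 or vegetative replicate 2 (adjusted p up to 0.072). Thiosulfate sulfurtransferase 16 (LOC115702651), which moves sulfur between small molecules, fell to 7.43 and 4.77 FPKM in female week 1 apices, against 23.4 and 35.3 in vegetative apices (-2.09 ± 0.25, adjusted p = 0.00128).

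Nitrogen and phosphate lists gave 8 rises and 2 falls in 98 genes and 4 rises and 3 falls in 59. The shares called were 10.2% and 11.9%, against 5.90% of all genes. The rises were 1 to 3 and 3 to 4 without 1 library. An SPX domain membrane protein (LOC115708335), of a family that acts in phosphate balance, had 5.09 and 5.76 FPKM in female week 1 apices, against 0.208 and 0.0866 in vegetative apices (2.48 ± 0.14, adjusted p = 2.24e-05). Amino acid permease 7 (LOC115725195) rose by 1.36 ± 0.19. Neighbouring genes of the NRT1/PTR transporters on chromosome 9, between 55863152 and 55936926, gave 3 rises in 6 tested.

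Most cell wall genes were not called. Of 96 genes of pectin enzymes, which loosen or stiffen the matrix between cells, 11 rose and 2 fell, with a median of 0.15, and 3 to 8 rose without 1 library. The rises were 5 of 21 polygalacturonases, 3 of 16 pectinesterases and 2 of 9 pectate lyases among others. A probable polygalacturonase (LOC115706421) had 147 and 144 FPKM in female week 1 apices, against 56.5 and 58.7 in vegetative apices (1.32 ± 0.13, adjusted p = 0.000409). Of 50 expansin and xyloglucan genes, 3 rose and 8 fell, with 2 to 3 and 2 to 7 without 1 library. Among 18 expansins 3 rose and 1 fell, and of 19 xyloglucan endotransglucosylases, which cut and rejoin the tethers between cellulose fibres, 0 rose and 7 fell. The xyloglucan endotransglucosylase sums overlapped, at 2274 and 2426 FPKM in female week 1 and 2845 and 2195 FPKM in vegetative apices. XTH23 (LOC115725277) had 1.52 and 2.43 FPKM in female week 1 apices, against 20.2 and 9.28 in vegetative apices (-2.33 ± 0.35, adjusted p = 0.00434). It lies in a row of similar genes on chromosome 6, 4028900 to 4084283, where 4 of 7 tested fell, and reads may have been shared among them. Dirigent protein 5 (LOC115716167), which guides the coupling of lignan precursors, had 34.9 and 42.4 FPKM against 8.65 and 7.42 (2.13 ± 0.20, adjusted p = 0.000345).

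Genes of starch and sugars had individual changes. Of 38 starch genes, 4 rose and 2 fell, with a median of 0.19, and 1 to 3 rose without 1 library. All 4 rises were beta-amylases, which degrade starch, among 10 tested. Beta-amylase 1 (LOC115723011) had 14.5 and 11.1 FPKM in female week 1 apices, against 4.88 and 3.11 in vegetative apices (1.48 ± 0.18, adjusted p = 0.00161). Granule-bound starch synthase 1 (LOC115704971), which makes amylose, had 4.35 and 3.51 FPKM against 16.7 and 24.1 (-2.10 ± 0.19, adjusted p = 0.000328). Of 69 genes of sugar transport and cleavage, 7 rose and 1 fell (11.6% called, against 5.90% of all genes), with fewer rises without 1 library. Galactinol-sucrose galactosyltransferase 2 (LOC115709472), which handles raffinose sugars, had 14.5 and 14.4 FPKM in female week 1 apices, against 2.5 and 1.61 in vegetative apices (2.36 ± 0.15, adjusted p = 3.62e-05).

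Of 83 photosynthesis genes tested, 3 rose and 11 fell, with a median of 0.02. Without 1 library 0 rose and 3 to 8 fell. Chlorophyll a-b binding proteins, which harvest light, fell in 5 of 14, and their sum was 13723 and 10441 FPKM in female week 1 apices and 17825 and 20697 FPKM in vegetative apices. A light-harvesting gene of this class, CAB (LOC115712676), had 966 and 743 FPKM against 2214 and 2425 (-1.45 ± 0.20, adjusted p = 0.00296). Of 4 Rubisco small subunits, of the enzyme that fixes carbon dioxide, 1 rose and 1 fell. Their sums overlapped between the groups, at 13547 and 10241 FPKM in female week 1 apices and 7483 and 10662 FPKM in vegetative apices. Of 25 photosystem subunit genes, 0 were called by limma, 5 had an unadjusted p under 0.05, and 2 were called in the authors' deposited table. The libraries differed within groups here, with replicate 1 above replicate 2 in female week 1 and below it in vegetative apices. Leaf mesophyll markers, which share genes with this list, gave 1 rise and 6 falls in 13 tested, and summed to 22175 and 16687 FPKM in female week 1 and 18681 and 23463 FPKM in vegetative apices. Their part in the result was not tested.

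Of 30 circadian clock genes, 3 rose and 4 fell, with a median of -0.04, and 1 to 2 rose and 2 to 4 fell without 1 library. EARLY FLOWERING 4 (LOC115706039), of the evening complex that represses growth genes at night, had 155 and 159 FPKM in female week 1 apices, against 74.2 and 63 in vegetative apices (1.19 ± 0.13, adjusted p = 0.000767). LNK2 (LOC115706648), a coactivator in the clock, had 3.23 and 3.28 FPKM against 10.1 and 12.8 (-1.54 ± 0.17, adjusted p = 0.00106), and the pseudo-response regulator PRR95 (LOC115705125) fell by 1.57 on the log2 scale. GIGANTEA (LOC115708742), which links the clock to flowering, had 81.5 and 72.2 FPKM in female week 1 and 83.7 and 80.1 FPKM in vegetative apices (-0.09 ± 0.17, adjusted p = 0.832). The labels give no time of day for any collection.

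Of 53 cuticle and wax genes, which make the surface lipids, 1 rose and 7 fell, with a median of -0.22 and 3 to 5 falls without 1 library. Fatty acyl-CoA reductase 8-like (LOC133036463), which makes wax alcohols, had 8.56 and 10.7 FPKM in female week 1 apices, against 46.7 and 45.7 in vegetative apices (-2.16 ± 0.22, adjusted p = 0.000603). PROTODERMAL FACTOR 2 (LOC115708255), a homeobox regulator of the epidermis, had 28.6 and 28.2 FPKM against 63.2 and 53.5 (-1.01 ± 0.12, adjusted p = 0.00124). It was the 1 gene to fall among 3 epidermis markers, whose sum was 1176 and 1405 FPKM in female week 1 and 1463 and 1158 FPKM in vegetative apices; their part in the result was not tested.

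Lipid-transfer proteins, which carry wax and membrane lipids, gave 3 rises and 4 falls in 25, and 1 to 2 rises and 2 to 3 falls without 1 library. On chromosome 7, between 2241233 and 2452827, neighbours moved apart. One non-specific lipid-transfer protein 1 gene there (LOC115696872) had 48.8 and 58.9 FPKM in female week 1 apices, against 10.6 and 11.5 in vegetative apices (2.18 ± 0.20, adjusted p = 0.000302). Another (LOC115698127) had 263 and 338 FPKM in female week 1 apices, against 841 and 1166 in vegetative apices (-1.73 ± 0.21, adjusted p = 0.00161).

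**Figure D5:**
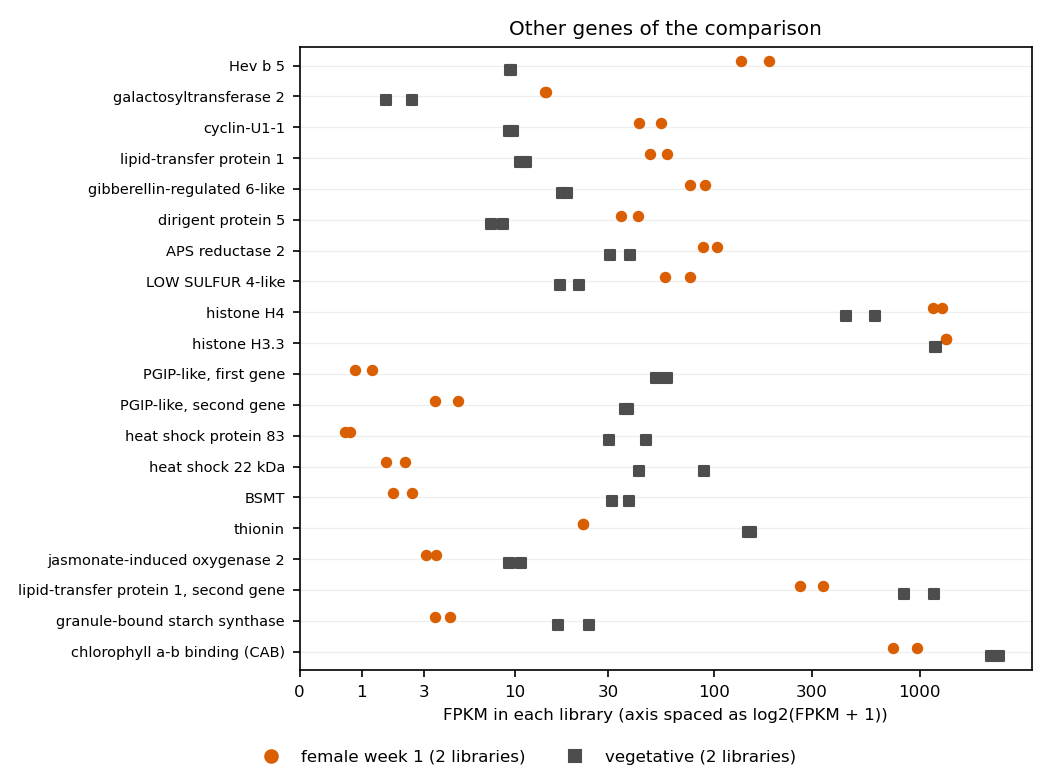
FPKM in each library for 20 further genes, on an axis spaced as log2(FPKM + 1); circles are the 2 female week 1 libraries and squares the 2 vegetative libraries. The 2 kinds of symbol lie close together for histone H3.3 (LOC115712897), at 1333 and 1342 FPKM in female week 1 and 1180 and 1196 FPKM in vegetative apices, and are apart for the genes that rose or fell.

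Cannabinoid genes gave 1 call, at a low level. Of 7 tested, 0 rose and 1 fell, a cannabidiolic acid synthase-like gene (LOC115697762) with 2.37 and 2.38 FPKM in female week 1 apices and 5.07 and 4.61 FPKM in vegetative apices (-0.79, adjusted p = 0.0357), lost without any 1 of the 4 libraries (adjusted p up to 0.171). Olivetolic acid cyclase-like (LOC115723438), which closes the ring of the cannabinoid precursor, had 1176 and 1565 FPKM in female week 1 and 1318 and 1686 FPKM in vegetative apices (-0.14, adjusted p = 0.877). Of 44 genes matched to glandular trichome markers, 17 were tested, 2 rose and 2 fell, 13 were listed at 0 in all 4 libraries, and the sum was 1479 and 1905 FPKM in female week 1 and 1581 and 1946 FPKM in vegetative apices. Of 55 terpene genes, 4 rose and 5 fell (16.4% called, against 5.90% of all genes), with fewer of each without 1 library. Of 46 flavonoid genes, 7 rose and 2 fell, with a median of 0.10, and 0 to 6 rose without 1 library. Dihydroflavonol 4-reductase (LOC115710150), on the way to anthocyanins, had 48.7 and 59.6 FPKM in female week 1 apices, against 21.5 and 9.88 in vegetative apices (1.81 ± 0.29), lost without female week 1 replicate 2 (adjusted p = 0.0583).

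Many gene families gave few or no calls. Of 288 receptor kinases tested, 4 rose and 6 fell (3.47% called, against 5.90% of all genes), of 81 disease resistance genes 0 rose and 1 fell, and of 563 ubiquitin and F-box genes 7 rose and 5 fell. Without 1 library these were 0 to 4 and 0 to 3, 0 and 0 to 1, and 1 to 3 and 0 to 5. Meiosis genes gave 0 calls by limma in 14 tested, 2 of which had an unadjusted p under 0.05, and 1 was called in the authors' deposited table. Phloem markers gave 1 rise and 1 fall in 19 tested and summed to 3644 and 3679 FPKM in female week 1 and 4937 and 4553 FPKM in vegetative apices. Xylem markers gave 0 calls by limma in 12 tested, with 0 at an unadjusted p under 0.05 and 0 called in the authors' deposited table, and summed to 97 and 82 FPKM in female week 1 and 89.1 and 79 FPKM in vegetative apices.

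The leading genes were also high in male week 1 apices, whose comparison would share the same vegetative libraries. CAULIFLOWER (LOC115704295) averaged 165 ± 63.1 FPKM there, Hev b 5 (LOC115700445) 277 ± 80.6 and histone H4 (LOC115719770) 1397 ± 273 (SD, n = 2). The direct test of female against male week 1 called 16 of 16426 genes (0.0974%), and 6 of these had also risen or fallen in female week 1 against vegetative apices. That count was 9 without female week 1 replicate 1, 5 without female week 1 replicate 2 and 93 without male week 1 replicate 2. In female week 3 apices CAULIFLOWER averaged 190 ± 13.3 FPKM, JOINTLESS (LOC115714329) 0.523 ± 0.125, LOC115697903 1.5 ± 2.12 and histone H4 536 ± 48.8 (SD, n = 2). These week 3 values were not tested here.

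The authors' deposited table gives its own result for the same pair of groups. At an adjusted p under 0.05, the authors' deposited table calls 1335 genes, 756 higher and 579 lower, and 1329 of them were among the genes tested here. Of these, 833 were also called by limma in the same direction and 0 in the opposite one. The shared genes are 86% of the limma calls and 62.7% of the calls among tested genes in the authors' deposited table.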

How the data were processed

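Messenger RNA of apical shoot tips was sequenced in 10 libraries, 2 in each of 5 groups, taken from the labels. Per the labels' protocols, RNA was extracted with a column kit and DNase, checked on agarose gels, and made into Illumina libraries by a sequencing company. The sources used here do not give the aligner, the counting tool or the normalisation. Each line of the deposited table is a gene of assembly ASM2916894v1, with coordinates, descriptions and the nearest Arabidopsis protein with its percent identity, per the file headers. Its values per library, deposited by the authors without a named unit, were read as FPKM from the values, and cannot be told apart from RPKM. Depth in reads is unknown. Depth relative to female week 1 replicate 1, from the steps of low values, was 1.031 in female week 1 replicate 2 and 1.011 and 0.908 in vegetative replicates 1 and 2. The 10 highest genes held 6.14% to 8.03% of each library's total. The authors' log2 fold change, p-value and adjusted p-value of this comparison were read per the file headers. They were used only for the counts and values that name the authors' deposited table. Symbols of 34658 genes matched the reference gene table.

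Genes averaging 1 FPKM or more in female week 1 or vegetative apices entered a linear model of log2(FPKM + 1), with limma (version 3.58.1, under R version 4.3.3). All 10 libraries were used, each group had its own mean, and empirical Bayes moderation was run with a trend and robustly, giving 5 residual degrees of freedom and 5.17 prior ones at the median. Tests were 2-sided, adjusted by Benjamini-Hochberg over all genes tested, with a threshold of 0.05. The method was tested on simulated data. Members of 62 gene lists and the cell type markers were matched on descriptions and Arabidopsis matches; the genes and lists were chosen with earlier results of these data known, and 2 lists (sulfur, endoplasmic reticulum folding) were added after values had been seen. No match was found for CLV3, olivetol synthase and DYT1. Genes were named by rule: the 25 largest rises and 25 largest falls among called genes with a product, libraries that do not overlap and an average of 10 FPKM or more where higher; up to 4 called members of each list and direction, or its highest member; called genes listed at 0 in 1 group; the 10 called genes of each direction with the highest mean; all members of lists with at most 12 tested; and flowering and MADS-box genes whatever their result. The text gives a subset. Histone H3.3, and RADIALIS-like 2 and 1 lipoxygenase in the closing section, were chosen after their values were seen. Alternatives changed the pseudocount, filter, scaling, moderation, libraries in the fit and replicate block.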

Additional observations from a re-analysis of the deposited data

Results flagged for a closer look

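The change from vegetative apices differed between female and male week 1 apices in 16 genes, by the direct limma test of female minus male. Described here are the 6 of these that were also called in female week 1 against vegetative apices. Both changes are taken against the same vegetative libraries, so their difference is that of the 2 week 1 groups. WRKY70 (LOC115707511), a transcription factor of salicylate responses, had 1.41 and 0.705 FPKM in female week 1 apices, against 30.2 ± 6.86 FPKM in male week 1 apices (SD, n = 2), a difference of -3.93 (adjusted p = 0.00012), while vegetative apices had 4.84 and 3 FPKM. A second WRKY70 gene (LOC115695993) had 4.48 and 2.22 FPKM in female week 1 apices, against 11.8 ± 0.306 FPKM in male week 1 apices (-1.61, adjusted p = 0.0491), and 9.04 and 6.29 FPKM in vegetative apices. For both WRKY70 genes female week 1 apices were the lowest of the 3 groups. Without 1 library, the first kept its difference from male week 1 apices (adjusted p up to 0.00132), but lost its fall from vegetative apices without female week 1 replicate 2 or vegetative replicate 1 (adjusted p up to 0.118). The second lost its difference from male week 1 apices without female week 1 replicate 2, vegetative replicate 1 or 2, or male week 1 replicate 1 (adjusted p up to 0.252), and its fall from vegetative apices without the same female and vegetative libraries (adjusted p up to 0.2).

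BSMT (LOC115711939) had 1.82 and 2.48 FPKM in female week 1 apices, against 12.4 ± 3.28 FPKM in male week 1 apices (-2.08, adjusted p = 0.00894), and 38.1 and 31.5 FPKM in vegetative apices. A probable mannitol dehydrogenase (LOC133037330), of a family of alcohol dehydrogenases, had 12 and 12.8 FPKM in female week 1 apices, against 31.7 ± 8.06 FPKM in male week 1 apices (-1.27, adjusted p = 0.0491), and 51.4 and 53 FPKM in vegetative apices. Male week 1 values lay between the other groups in these genes. The difference from male week 1 apices was lost without female week 1 replicate 1 in BSMT (adjusted p = 0.0508), and in every fit without 1 library but that without male week 1 replicate 2 in the mannitol dehydrogenase (adjusted p up to 0.277).

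A lipoxygenase 2 gene (LOC115720530) had 39.9 and 30.5 FPKM in female week 1 apices, against 70.3 ± 0.11 FPKM in male week 1 apices (-0.99, adjusted p = 0.0491), and 71.6 and 65.8 FPKM in vegetative apices. RADIALIS-like 2 (LOC115713090), a MYB-related regulator, had 18.4 and 19 FPKM in female week 1 apices, against 8.31 ± 0.539 FPKM in male week 1 apices (1.08, adjusted p = 0.019), and 9.82 and 11.2 FPKM in vegetative apices. The difference of the lipoxygenase from male week 1 apices was lost in every fit without 1 library but that without male week 1 replicate 2 (adjusted p up to 0.381), and its fall from vegetative apices without female week 1 replicate 2 (adjusted p = 0.0526). That of RADIALIS-like 2 was lost without female week 1 replicate 1 or 2 (adjusted p up to 0.21), and its rise over vegetative apices without either of these or vegetative replicate 1 (adjusted p up to 0.0692). Male libraries were treated with STS and female ones were not, so sex of the flower and treatment cannot be told apart.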

How the results depend on the processing

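The count of 969 genes was 793 to 1183 under other pseudocounts (0.1 and 5), filters, scalings, moderation, without male week 3, and with only the 4 libraries compared. Leaving out 1 library gave 291 to 1512 (higher 152 to 886, lower 139 to 626); the male week 1 libraries were left out after seeing the data. With the replicate number as a block, 835 genes were called. The labels do not say that the numbers pair the libraries. Deviations of same-numbered libraries correlated at -0.016 between female week 1 and vegetative apices. With 2 libraries a group, this cannot show whether libraries share a plant or day. The 16 genes of female against male week 1 became 10 with no filter on low values, 5 with a mean of at least 5 in either group, 25 with a mean of at least 1 in any group, 10 with no trend and no robust step, 14 with the replicate block, 10 with the male week 1 numbers crossed (added after seeing the data, since the correlation was -0.454), and 5 to 93 without 1 library. The cause of these moves was not tested. Of 344 named called genes, 251 stayed called in every setting that left out no single library and still tested them, 130 in the 4 fits without 1 library, and 0 reversed. Depth in reads is unknown, so counting error is unknown and low values are imprecise. With 2 libraries a group, the spread rests on all 10 libraries.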

Other observations

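Among genes that differed by at least 2 log2 units, 16 were not called. In 14 of these, which carry no product description, at least 1 of the 4 libraries was listed at 0. The other 2 have a description and were high. Mulatexin (LOC115715128), a chitin-binding defence protein known from mulberry latex, had 907 and 96.2 FPKM in female week 1 apices, against 2531 and 2984 in vegetative apices, a difference of -3.21 ± 1.87 (limma adjusted p = 0.44). LOC115709849 had 95.9 and 29.9 FPKM in female week 1 apices, against 224 and 431 in vegetative apices (adjusted p = 0.263). In both genes the groups did not overlap, but the 2 female week 1 libraries differed several-fold from each other. They were chosen for their size after values had been seen.

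Of the called genes with the highest levels, 9 of the 10 that rose were histones, beside a type 2 metallothionein (LOC115720160), a small protein that binds metals, with 1019 and 1003 FPKM in female week 1 apices and 658 and 606 FPKM in vegetative apices (0.68 ± 0.17), a call lost without any 1 of the 4 libraries (adjusted p up to 0.222). Of those that fell, the highest was an uncharacterized gene (LOC133035805), with 2533 and 2757 FPKM in female week 1 apices, against 7219 and 6554 in vegetative apices (-1.38 ± 0.28), likewise lost (adjusted p up to 0.12). Inositol oxygenase (LOC115707556), which turns inositol into a cell wall precursor, had 599 and 658 FPKM in female week 1 apices, against 1285 and 1595 in vegetative apices (-1.19 ± 0.16).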
